A study of Mus musculus with 15 samples.

Results

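Long RNA of liver from H3D mice was compared with that of NCD mice, with 2 pools of RNA in each group, so that 4 of the 15 samples of the series enter the comparison. H3D mice were wild-type C57BL/6 males born to the F2 generation of a line in which F0 females, fed chow or a high-fat diet (60% of calories from fat) from 1 to 3 months of age, were mated with chow-fed males, and the next generation was bred in a like way. H3D males were injected with DEN (diethylnitrosamine, a carcinogen that hepatocytes activate) at 2 weeks of age and then kept on the high-fat diet. NCD mice were wild-type C57BL/6 males born to the F0 generation, given DEN at the same age and kept on normal chow; the labels do not state the diet of those mothers beside the group. H3D and NCD therefore differ at once in what the animals ate, in their maternal line and in when they were bred, and these cannot be told apart. All livers were taken at 40 weeks. The other long RNA groups serve as side measurements: H2D and H1D, which had DEN and the high-fat diet but were born to the F1 and F0 generations, and Nor, born to F0, which had PBS in place of DEN and chow. Equal amounts of RNA of 4 to 8 animals of a group were combined into the 2 pools, and the labels do not say how animals were shared out between them, so p-values here measure only the spread between pools, which may be technical, and not that between animals.

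The labels give the tissue as liver and do not say whether tumour nodules were included or avoided. Albumin (Alb), the main secreted protein of hepatocytes, had 58720 and 46962 FPKM (fragment counts scaled to transcript length and library size) in the H3D pools and 46561 and 43459 FPKM in the NCD pools, so the defining transcript of the labelled tissue was abundant in both. Transcripts that mouse liver tumours are known for were present in both DEN groups at far higher levels than in Nor. Glypican-3 (Gpc3), a cell-surface proteoglycan of fetal liver and liver tumours, had 81.7 and 26.0 FPKM in H3D and 53.5 and 72.8 FPKM in NCD, against 0.110 and 0.149 FPKM in Nor. Trefoil factor 3 (Tff3), a secreted peptide, had 665 and 612 FPKM in H3D and 228 and 294 FPKM in NCD, against 3.84 and 2.97 FPKM in Nor.

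As background, the liver of male mice carries a programme of transcripts set by the pulses of growth hormone that males secrete, received by the growth hormone receptor and the transcription factor STAT5b. The major urinary proteins, which carry pheromones into urine, are its most abundant products. In inflammation, interleukin-6 and STAT3 raise a different set of hepatocyte transcripts, the acute phase proteins. Hepatocytes also hold the enzymes for drug and steroid metabolism, bile acid synthesis, fatty acid oxidation and the urea cycle.

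Of 21949 genes in the mRNA table, 11557 reached at least 1 FPKM in at least 2 of the 10 libraries and were tested on log2(FPKM + 0.5). "Rose" and "fell" are used below for genes with a Benjamini-Hochberg adjusted p under 0.05 in limma. In H3D against NCD, 583 genes rose (5.04% of those tested) and 1141 fell (9.87%), which made 1724 calls in all (14.9%), where 3458 genes had an unadjusted p under 0.05. The change reached 2-fold or more for 211 of the genes that rose and 333 of those that fell, and 8-fold or more for 16 and 42. By the mean level in H3D and NCD, 3.73% fell and 5.92% rose of the 4456 genes under 5 FPKM, and 9.58% fell and 4.17% rose of the 5825 genes at 5 to 50 FPKM. Of the 1124 genes at 50 to 500 FPKM, 32.7% fell and 4.72% rose, and of the 152 genes at 500 FPKM and above, 32.9% fell and 15.1% rose. The gene lists below were not matched for level, so their counts of falls are to be read beside these shares. The pools of H3D and NCD did not overlap for 7333 genes (63.5%), so that a lack of overlap alone sets a gene little apart. The 5 calls nearest the threshold had an adjusted p of 0.0497 to 0.05, and the 5 genes just beyond it had 0.05002 to 0.05018.

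The split of the calls by direction depends on the scale. FPKM of the mRNA table summed to 568823 and 582521 in the H3D pools and to 676268 and 660821 in the NCD pools, and mitochondrially encoded transcripts made up 8.66% and 8.28% of that sum in H3D, against 11.6% and 11.5% in NCD. With libraries set to equal FPKM sums, 1967 genes rose and 671 fell, and the median of all genes lay at 0.20 rather than 0.00 on the log2 scale. With equal sums of nuclear genes, 1329 rose and 710 fell, and with quantile scaling 817 rose and 921 fell. Counts of gene groups are therefore followed by those under equal FPKM sums where either direction differs by over 1.5 times. Without NCD pool 2 the number of calls was 508, without NCD pool 1 it was 710, without H3D pool 1 it was 925 and without H3D pool 2 it was 960; in these fits the lone pool is taken to vary like the other groups. In all 10 fits without 1 library, 91 rises and 333 falls were called each time.

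**Figure D1:**
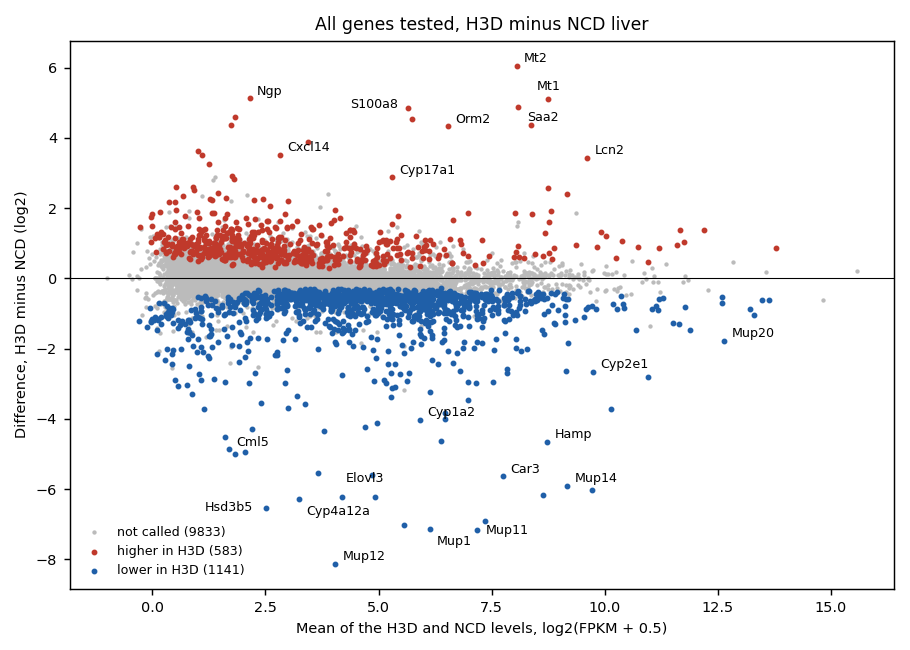
Each point is 1 of the 11557 genes tested, with the mean of its H3D and NCD levels as log2(FPKM + 0.5) across and the log2 difference, H3D minus NCD, upwards. The 583 genes that rose are red, the 1141 that fell are blue and the others grey; the metallothionein Mt2 lies highest, with Ngp and Mt1 next, and several major urinary protein genes (Mup) lie lowest.

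The male programme was the group with the lowest values. Of 40 tested genes known to be more abundant in male than in female mouse liver, 35 fell and 0 rose (0 at an unadjusted p under 0.05), with a median log2 difference of -3.36, where the median of all genes was 0.00338. All 17 tested major urinary protein genes were among those that fell, with a median of -5.91, as did 18 of the 23 other male-biased genes, with a median of -2.17. Summed over the 21 genes named Mup in the table, the level was 4055 and 5605 FPKM in the H3D pools, against 39950 and 43327 FPKM in the NCD pools, which is 8.62 times lower. That sum took 0.713% and 0.962% of all mRNA FPKM in H3D and 5.91% and 6.56% in NCD. An exact two-sided permutation test of this sum gave p = 0.333, the smallest that 2 pools against 2 allow. The coding sequences of the Mup genes are nearly identical, so the split of reads between single members is uncertain and the sum is the firmer value.

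Single Mup genes covered a wide range of levels. Mup12 (chr4:60737381-60741416 on GRCm38) had 0.372 and 0.610 FPKM in H3D, against 262 and 285 FPKM in NCD (log2 difference -8.12 ± 0.52, SE, adjusted p = 0.000162). Mup11 had 13.7 and 9.60 FPKM in H3D, against 1712 and 1738 FPKM in NCD (log2 difference -7.17 ± 0.55, adjusted p = 0.000383). Mup14 had 63.6 and 84.0 FPKM in H3D, against 4190 and 4697 FPKM in NCD (-5.91 ± 0.30, adjusted p = 0.000117). The 2 pools of each group lay close together and far from those of the other. Mup20, which encodes darcin, a pheromone that attracts females, fell least of the 17, with 2901 and 4037 FPKM in H3D and 10683 and 12777 FPKM in NCD (-1.77 ± 0.19, adjusted p = 0.00139). It made up most of the Mup total that was left in H3D.

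The promoters of 2 of these genes are printed to show the upstream sequence they share. Only this pair was compared, and whether the shared sequence bears on the fall was not tested. The 250 bases before the gene start are from RefSeq (GRCm38.p6, minus strand, chr4:60662396-60662645 for Mup11 and chr4:61303999-61304248 for Mup14), and capitals mark their longest identical run, 114 bases. Of the 19 Mup genes listed, 13 had an entry in the promoter table.
Mup11: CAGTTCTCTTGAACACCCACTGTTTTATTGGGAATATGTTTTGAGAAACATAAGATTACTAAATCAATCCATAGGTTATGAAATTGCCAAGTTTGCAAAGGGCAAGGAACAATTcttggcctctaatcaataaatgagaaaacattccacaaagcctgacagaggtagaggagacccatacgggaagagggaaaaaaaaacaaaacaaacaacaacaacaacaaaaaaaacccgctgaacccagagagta
Mup14: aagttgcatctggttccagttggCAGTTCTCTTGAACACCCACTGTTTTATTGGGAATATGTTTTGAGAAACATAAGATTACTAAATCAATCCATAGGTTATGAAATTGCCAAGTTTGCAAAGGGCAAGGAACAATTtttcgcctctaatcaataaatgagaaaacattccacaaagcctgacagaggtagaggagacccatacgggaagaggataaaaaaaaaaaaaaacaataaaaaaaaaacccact

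The 2 largest falls outside the Mup genes ended under 1 FPKM in H3D. Hsd3b5 (chr3:98618636-98645534), a male-specific steroid reductase, had 0.0720 and 0.113 FPKM in H3D, against 47.6 and 61.3 FPKM in NCD (-6.53 ± 0.34, adjusted p = 0.000117). Cyp4a12a (chr4:115299046-115332815), which hydroxylates arachidonic acid, had 0.587 and 0.524 FPKM in H3D, against 65.8 and 101 FPKM in NCD (-6.28 ± 0.30, adjusted p = 0.000117); its close copy Cyp4a12b shares reads with it and fell by 4.93. Both H3D pools of these genes lay under 1 FPKM, where the added 0.5 FPKM makes the log2 difference smaller than the ratio of the levels. The fatty acid elongase Elovl3 had 0.953 and 2.21 FPKM in H3D and 99.8 and 218 FPKM in NCD (-6.22 ± 1.01, adjusted p = 0.00655); its call was lost without NCD pool 2, at -5.66. Slco1a1, a transporter of organic anions and bile acids, had 4.45 and 6.64 FPKM in H3D and 101 and 123 FPKM in NCD (-4.24 ± 0.26, adjusted p = 0.000151). The acetyltransferase relatives Cml5 and Nat8 fell by 4.87 and 4.29, with 0.574 and 0.505 FPKM of Nat8 in H3D and 21.6 and 18.2 FPKM in NCD. Carbonic anhydrase 3 (Car3), which is abundant in muscle, fat and male liver, had 23.3 and 37.7 FPKM in H3D and 1515 and 1494 FPKM in NCD (-5.64 ± 0.32, adjusted p = 0.000151).

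**Figure D2:**
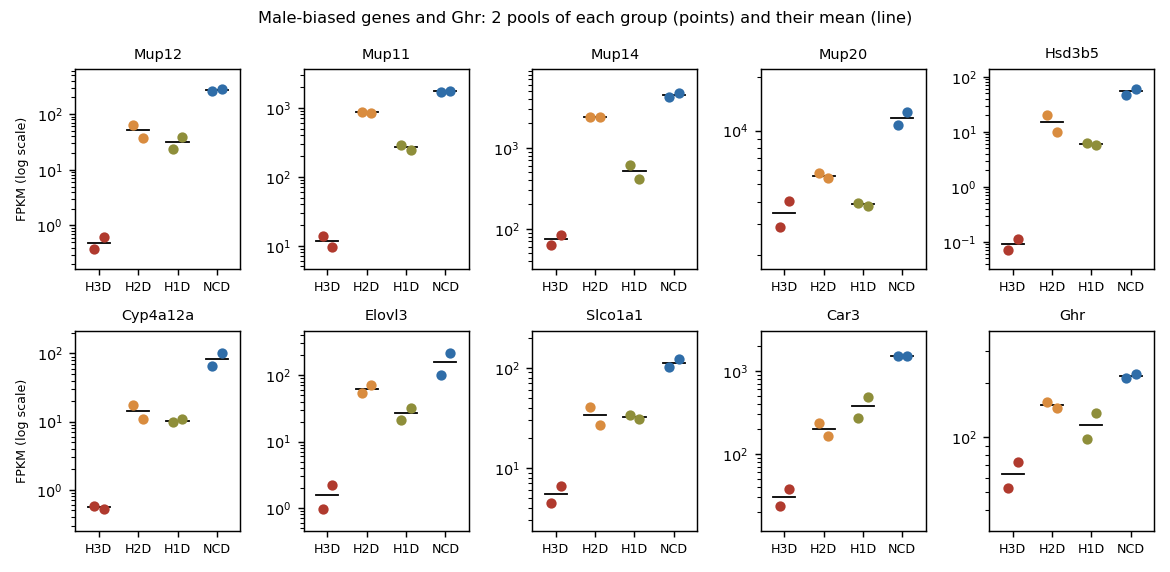
FPKM (log scale) of 9 male-biased or Mup genes and Ghr in each pool (points) and the mean of the 2 pools (line), for H3D, H2D, H1D and NCD. The H3D pools lie lowest in 9 of the 10 panels, with Mup12 at 0.372 and 0.61 FPKM, against 262 and 285 FPKM in NCD; for Mup20 the higher H3D pool lies above both H1D pools.

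The transcript of the growth hormone receptor was lower, while few other genes of its axis were called. Of the axis genes tested, 18.8% were called, against 14.9% of all genes. Their median was -0.19, and with equal FPKM sums it was 0.0167, where that of all genes was 0.20. Ghr had 52.6 and 73.5 FPKM in H3D, against 213 and 223 FPKM in NCD (-1.80 ± 0.19, adjusted p = 0.00135). Of the 16 tested genes of the axis, 3 fell and 0 rose (1 was higher at an unadjusted p under 0.05), and without a Nor pool 4 fell and 1 rose; with equal FPKM sums 3 fell and 1 rose. The other 2 were Igfals, the acid-labile subunit that holds IGF-1 in the circulation (8.26 and 15.6 FPKM in H3D and 25.3 and 28.3 FPKM in NCD, -1.20 ± 0.28, adjusted p = 0.026), and Igfbp2, which binds IGFs (-1.38 ± 0.31, adjusted p = 0.0233). Both calls were lost without NCD pool 1, NCD pool 2 or H3D pool 1, at -1.28, -1.12 and -0.76 for Igfals and -1.47, -1.29 and -1.46 for Igfbp2, and that of Igfbp2 also without H3D pool 2, at -1.31. Igf1, the hormone that growth hormone induces in liver, had 130.3 and 235 FPKM in H3D and 290.2 and 262 FPKM in NCD and did not pass the test (adjusted p = 0.21). Genes known to be more abundant in female liver moved in both directions: of 31 tested, 3 rose and 6 fell, with a median of -0.221. Under equal sums 6 rose and 6 fell, with a median of -0.0104. Cyp17a1, a steroid hydroxylase, rose to 96.3 and 114 FPKM in H3D, against 16.6 and 11.5 FPKM in NCD (2.88 ± 0.27, adjusted p = 0.000981). The oxysterol hydroxylase Cyp39a1 rose by 0.89 and the flavin monooxygenase Fmo1 fell by 0.98, and both calls were lost without NCD pool 1, NCD pool 2 or H3D pool 1, at 0.84, 0.95 and 0.72 for Cyp39a1 and -0.92, -1.04 and -0.90 for Fmo1. Without NCD pool 2, 1 female-biased gene rose and 1 fell; without NCD pool 1, 0 fell, without H3D pool 1, 1 fell, and without H3D pool 2, 2 fell.

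Acute phase transcripts were higher. Of 32 tested genes of this group, 22 rose and 3 fell, with a median log2 difference of 1.34. Serum amyloid A2 (Saa2, chr7:46751833-46754313), an apolipoprotein of inflammation, had 696 and 2538 FPKM in H3D, against 35.2 and 56.0 FPKM in NCD (4.89 ± 0.72, adjusted p = 0.00476). Its neighbour Saa1 had 788 and 2378 FPKM in H3D, against 51.0 and 84.3 FPKM in NCD (4.37 ± 0.60, adjusted p = 0.00376). H3D pool 2 was the higher for both genes, and both H3D pools lay above both NCD pools; Saa1 and Saa2 are near-identical and may exchange reads.

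The promoters of this pair are shown because the 2 genes rose together, and whether their shared sequence bears on the rise was not tested. The genes lie on opposite strands, and the promoters are at chr7:46751583-46751832 (plus strand, Saa2) and chr7:46742981-46743230 (minus strand, Saa1), again the 250 bases before the gene start from RefSeq (GRCm38.p6), and capitals mark their longest identical run, 65 bases.
Saa2: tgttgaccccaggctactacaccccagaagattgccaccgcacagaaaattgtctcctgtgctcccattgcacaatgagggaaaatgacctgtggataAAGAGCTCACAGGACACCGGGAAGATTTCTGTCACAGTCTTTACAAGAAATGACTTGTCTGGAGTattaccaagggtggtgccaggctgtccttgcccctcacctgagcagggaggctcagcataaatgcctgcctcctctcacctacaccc
Saa1: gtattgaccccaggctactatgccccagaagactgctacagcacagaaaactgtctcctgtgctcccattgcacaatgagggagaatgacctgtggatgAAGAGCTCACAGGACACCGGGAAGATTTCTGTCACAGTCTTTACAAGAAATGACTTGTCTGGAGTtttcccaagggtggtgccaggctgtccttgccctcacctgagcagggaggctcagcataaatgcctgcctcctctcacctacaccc

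The other acute phase genes differed in how far they rose. Orm2, an orosomucoid that binds drugs in plasma, had 338 and 504 FPKM in H3D, against 19.3 and 20.7 FPKM in NCD (4.33 ± 0.57, adjusted p = 0.00333). Lipocalin-2 (Lcn2), which withholds iron-carrying siderophores from bacteria, had 2648 and 2471 FPKM in H3D, against 199 and 280.4 FPKM in NCD (3.43 ± 0.21, adjusted p = 0.000151). For both genes each H3D pool lay far above both NCD pools. Smaller rises came from Lrg1, a leucine-rich plasma glycoprotein (952 and 793 FPKM in H3D and 228 and 230.1 FPKM in NCD, 1.92 ± 0.11), the protease inhibitor Serpina3n (1.82 ± 0.13) and Itih3, which binds hyaluronan (736 and 781 FPKM in H3D and 245 and 256 FPKM in NCD, 1.59 ± 0.09). Their adjusted p-values were 0.000151, 0.000264 and 0.000151. The haemoglobin and haem scavengers haptoglobin (Hp) and haemopexin (Hpx) rose by 1.38 and 1.37, with 4685 and 5876 FPKM of Hp in H3D and 2010.1 and 2024 FPKM in NCD.

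Hepcidin went the other way. Hamp, the hormone that blocks iron export and that interleukin-6 is known to raise, had 142 and 42.0 FPKM in H3D, against 1987 and 1912 FPKM in NCD (-4.65 ± 0.49, adjusted p = 0.00143), and its relative Hamp2 had 2.90 and 1.98 FPKM in H3D and 91.6 and 37.4 FPKM in NCD (-4.35 ± 0.82, adjusted p = 0.0115). The third acute phase gene that fell, the protease inhibitor Serpina3k, stood at -0.90. Without NCD pool 1 or without H3D pool 2, Hamp was the 1 member of the group that fell; Hamp2 was then at -3.71 and -4.12. Serpina3k was not called in any of the 4 fits that leave out an H3D or NCD pool, where it ran from -1.02 to -0.78, nor with equal FPKM sums, at -0.683, or quantile scaling, at -0.635. Of 19 iron handling genes, 7 rose and 3 fell. Ceruloplasmin (Cp), a copper ferroxidase, had 1654 and 1553 FPKM in H3D and 699.7 and 677 FPKM in NCD (1.22 ± 0.11, adjusted p = 0.000691). Transferrin (Trf), the iron carrier of plasma, rose by 0.86. The Trf call was lost without NCD pool 2, at 0.80, and with no filter on low values, at 0.86 (adjusted p = 0.197 in limma). The numbers of iron genes that rose and fell were 4 and 1 without NCD pool 1, 2 and 2 without NCD pool 2 and 4 and 1 without H3D pool 2.

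The hepcidin promoters are shown because the change was opposite to that of the other acute phase genes. Capitals mark the 1 match in each to the STAT-type element TTCNNNGAA, a palindrome searched on both strands in the 250 bases before the gene start (chr7:30944030-30944279 for Hamp and chr7:30924182-30924431 for Hamp2, minus strand, RefSeq, GRCm38.p6). Of 32851 promoters of that length, 7.02% hold such a match, and the windows of Saa1, Saa2, Mup11 and Mup14 hold 0. A match describes the letters and not the binding of a factor.
Hamp: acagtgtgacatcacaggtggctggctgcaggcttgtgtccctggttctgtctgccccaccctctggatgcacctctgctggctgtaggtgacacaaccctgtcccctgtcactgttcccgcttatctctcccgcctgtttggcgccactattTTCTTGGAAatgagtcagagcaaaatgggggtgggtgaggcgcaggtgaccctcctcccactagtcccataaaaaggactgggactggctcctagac
Hamp2: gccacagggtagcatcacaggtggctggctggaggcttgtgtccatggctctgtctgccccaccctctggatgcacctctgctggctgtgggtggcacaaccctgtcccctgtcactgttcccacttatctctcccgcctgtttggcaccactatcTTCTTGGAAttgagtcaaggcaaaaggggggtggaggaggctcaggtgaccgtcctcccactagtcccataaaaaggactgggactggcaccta

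**Figure D3:**
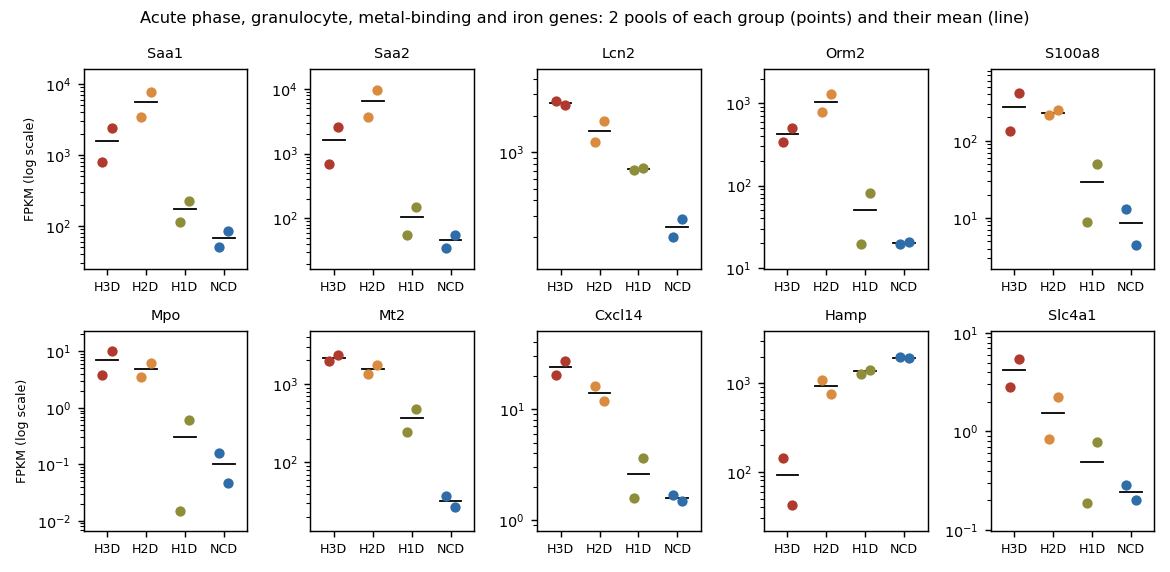
FPKM (log scale) of 10 acute phase, granulocyte, metal-binding, chemokine, iron and erythroid genes in each pool (points) and the mean of the 2 pools (line), for H3D, H2D, H1D and NCD. The H3D pools lie above the NCD pools in 9 panels and below them for Hamp (142 and 42.0 FPKM in H3D, against 1987 and 1912 FPKM in NCD).

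Genes of granulocytes were higher. Of 17 listed neutrophil markers 14 were tested, and 13 rose; 9 of the 14 reached 1 FPKM in neither NCD pool and so passed the filter through other groups, which makes the count no measure of the list. S100a8, a calcium-binding protein that fills neutrophil cytosol, had 132 and 418 FPKM in H3D, against 13 and 4.4 FPKM in NCD (4.86 ± 0.89, adjusted p = 0.0102). Genes of granule proteins, which are transcribed in immature granulocytes, were among those that rose. Ngp had 13.4 and 41.9 FPKM in H3D and 0.260 and 0.138 FPKM in NCD (5.12 ± 0.83, adjusted p = 0.00644). Myeloperoxidase (Mpo) had 3.82 and 10.3 FPKM in H3D and 0.160 and 0.0464 FPKM in NCD (3.50 ± 0.49, adjusted p = 0.00422), and proteinase 3 (Prtn3) had 31.1 and 47.3 FPKM in H3D and 3.93 and 1.04 FPKM in NCD (3.89 ± 0.62, adjusted p = 0.00609). H3D pool 2 was higher than H3D pool 1 for each of these, and both lay above both NCD pools. Lactoferrin (Ltf), which binds iron in granules, had 4.14 and 9.63 FPKM in H3D and 0.10 and 0.0134 FPKM in NCD (3.63 ± 0.51, adjusted p = 0.00413). The chitinase-like protein Chil3, made by neutrophils and macrophages and not on the marker list, had 10.6 and 24.7 FPKM in H3D and 0.317 and 0.0780 FPKM in NCD (4.60 ± 0.63, adjusted p = 0.00394). The summed level of the 17 markers was 2991 and 3448 FPKM in H3D, against 237 and 298 FPKM in NCD, but Lcn2, which hepatocytes also make, supplied 2648 and 2471 FPKM of that in H3D. Ly6g, the defining surface marker, had 0.273 and 0.554 FPKM in H3D and was listed at 0 in both NCD pools. Of the 14, 4 were called without NCD pool 2, where S100a8 was at 4.13 and Ngp at 5.00, and 8 without H3D pool 2, where S100a8 was at 4.03; the calls of S100a9 and Camp were lost without NCD pool 2 as well, at 3.90 and 3.95, and that of S100a9 without H3D pool 2, at 3.78. In bulk tissue, more cells of a type and more RNA per cell cannot be told apart.

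Some macrophage genes were higher. Of 26 tested, 4 of which reached 1 FPKM in neither NCD pool, 8 rose and 0 fell (0 at an unadjusted p under 0.05), with a median of 0.728, and the summed level was 1284 and 1527 FPKM in H3D, against 894 and 722 FPKM in NCD. Ccr2, the receptor that draws monocytes from blood, had 4.56 and 5.38 FPKM in H3D and 1.53 and 1.6 FPKM in NCD (1.4 ± 0.17, adjusted p = 0.0023). Mpeg1, a pore-forming protein of phagocytes, had 118 and 115 FPKM in H3D and 66.9 and 63.2 FPKM in NCD (0.84 ± 0.10, adjusted p = 0.00271). The lipid receptor Trem2 had 2.57 and 3.15 FPKM in H3D and 0.916 and 0.768 FPKM in NCD (1.32 ± 0.19, adjusted p = 0.00454). Gpnmb, a glycoprotein of lipid-laden macrophages, had 1.69 and 9.01 FPKM in H3D and 1.5 and 0.551 FPKM in NCD (adjusted p = 0.104); its H3D pools stood far apart, and without H3D pool 1 it was called, at 2.71. The number of macrophage genes that rose was 4 without NCD pool 1, 3 without NCD pool 2, 5 without H3D pool 2, where 2 fell, and 17 with equal FPKM sums.

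Lymphocyte genes showed no such shift: of 11 tested, 0 were called by limma and 0 had an unadjusted p under 0.05, and the 22 listed genes that the table holds summed to 63.5 and 54.3 FPKM in H3D and 44.0 and 53.3 FPKM in NCD. Of 7 tested erythroid genes, 2 of which reached 1 FPKM in neither NCD pool, 4 rose, with a sum of 1368 and 3983 FPKM in H3D, against 758 and 634 FPKM in NCD. Slc4a1, the anion exchanger of the red cell membrane, had 2.83 and 5.49 FPKM in H3D and 0.283 and 0.202 FPKM in NCD (2.59 ± 0.43, adjusted p = 0.00715). Pool 2 again lay above pool 1 in H3D. Without NCD pool 2, 0 of the 7 were called, with Slc4a1 at 2.51, and without H3D pool 2, 2 rose and 1 fell. How far blood in the tissue takes part in the granulocyte and erythroid values was not tested. Of 15 chemokine genes 2 rose and 1 fell. That made 20% called, and 11.4% of the interferon-stimulated genes below were called, against 14.9% of all genes. Cxcl14, a chemokine made by epithelial cells, had 20.2 and 27.0 FPKM in H3D and 1.68 and 1.49 FPKM in NCD (3.52 ± 0.31, adjusted p = 0.000691). Without NCD pool 1, NCD pool 2 or H3D pool 2, 1 chemokine gene rose and 0 fell, without H3D pool 1, 2 rose and 2 fell, with equal FPKM sums 4 rose and 0 fell, and without a Nor pool 4 rose. Of 35 interferon-stimulated genes 4 rose, with a median of 0.121; the count was 0 without NCD pool 2, 1 without NCD pool 1, H3D pool 1 or an H2D pool, 2 without an H1D pool and 9 with equal FPKM sums, and without H3D pool 1, 5 fell.

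The largest rise by log2 difference among the named genes was that of a metallothionein, one of the small proteins that bind zinc and copper. Mt2 (chr8:94172618-94173567) had 1956 and 2356 FPKM in H3D, against 37.3 and 26.9 FPKM in NCD, a ratio of 67.1 (6.06 ± 0.87, adjusted p = 0.00444). Mt1 (chr8:94178883-94180327) had 2228 and 2808 FPKM in H3D, against 73.1 and 71.3 FPKM in NCD, a ratio of 34.9 (5.11 ± 0.61, adjusted p = 0.00238). The pools of each group lay close together, and Mt2 had 1359.7 and 1727 FPKM in H2D. The zinc and iron importer Slc39a14 had 104 and 102 FPKM in H3D and 51.1 and 52.2 FPKM in NCD (0.98 ± 0.19, adjusted p = 0.0139), a call lost in each of the 4 fits that leave out an H3D or NCD pool, where it ran from 0.97 to 1.00. Among the other 11 tested genes of a list of hypoxia and metal response, Pdk1, a kinase that inhibits pyruvate dehydrogenase, fell by 1.03, a call lost without NCD pool 1, NCD pool 2 or H3D pool 1, at -0.97, -1.08 and -0.85.

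The Mt2 promoter is shown because metal response elements there are known to carry zinc induction through the factor MTF1. Capitals mark 3 matches on either strand to the core TGCACNC or TGCGCNC in the 250 bases before the gene start (chr8:94172368-94172617, plus strand, RefSeq, GRCm38.p6), and no match overlaps another. Of all 32851 promoters of that length, 21.4% hold at least 1 match and 1.26% hold 3 or more.
Mt2: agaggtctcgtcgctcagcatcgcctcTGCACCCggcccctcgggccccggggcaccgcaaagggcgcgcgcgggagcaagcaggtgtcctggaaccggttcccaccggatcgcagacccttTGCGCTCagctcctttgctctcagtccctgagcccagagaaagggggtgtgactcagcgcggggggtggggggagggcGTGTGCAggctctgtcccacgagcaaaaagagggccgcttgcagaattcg

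Enzymes of drug and toxin metabolism were lower. Of 41 genes on a list of targets of the receptors CAR and PXR and of other such enzymes, 25 fell and 1 rose, with a median of -1.19. Their summed level was 2590 and 3181 FPKM in H3D, against 9134 and 9771 FPKM in NCD. Cyp1a2 and Cyp2e1 of this list are also on that of the pericentral zone below, so these lists overlap. Cyp1a2, which oxidises caffeine and aromatic amines, had 15.9 and 12.7 FPKM in H3D, against 179.6 and 317 FPKM in NCD (-4.02 ± 0.29, adjusted p = 0.000269). Cyp2e1, which oxidises ethanol and activates DEN, had 319 and 357 FPKM in H3D, against 2072 and 2208 FPKM in NCD (-2.66 ± 0.22, adjusted p = 0.000487). The carboxylesterase Ces2a had 9.18 and 14.0 FPKM in H3D, against 112 and 133 FPKM in NCD (-3.37 ± 0.24, adjusted p = 0.000255). In each case the groups stood far apart. Cyp2b10, the marker of CAR activity, had 0 and 0.0186 FPKM in H3D, against 4.24 and 3.33 FPKM in NCD (-3.07 ± 0.35, adjusted p = 0.00203), and Cyp3a11, that of PXR, had 121 and 365 FPKM in H3D and 1264 and 1390.4 FPKM in NCD (-2.65 ± 0.42, adjusted p = 0.00608). The Cyp3a11 call was lost without NCD pool 2, at -2.58. The transcript of CAR itself, Nr1i3, fell to 7.64 and 9.69 FPKM in H3D, against 25 and 27.7 FPKM in NCD (-1.56 ± 0.23, adjusted p = 0.00487). The member that rose was the sulfotransferase Sult1a1 (0.75), whose call was lost in each fit without an H3D or NCD pool, between 0.70 and 0.81; with equal FPKM sums 2 of the 41 rose.

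Related detoxification groups were lower too, the glutathione and NRF2 genes by less. Among 20 dehydrogenases of alcohols and aldehydes, 17 fell and 0 rose (0 at an unadjusted p under 0.05), with a median of -0.893. Aldh2, which clears acetaldehyde, had 511 and 504 FPKM in H3D, against 1069.9 and 1119 FPKM in NCD (-1.11 ± 0.12, adjusted p = 0.00181), and Aldh1a1, which oxidises retinal, had 133 and 179.6 FPKM in H3D, against 623 and 623 FPKM in NCD (-2.01 ± 0.22, adjusted p = 0.00154). Without NCD pool 1, and likewise without NCD pool 2, 11 of the 20 fell. Of 39 glutathione and NRF2 genes, 13 fell and 1 rose, with a median of -0.305. With equal FPKM sums 12 fell and 3 rose, with a median of -0.111, where that of all genes was 0.20. In a fit of H3D and NCD alone 15 fell and 4 rose. Of all genes at 50 to 500 FPKM, 32.7% fell, and the list was not matched for level. Catalase (Cat), which removes hydrogen peroxide, had 415 and 439 FPKM in H3D and 952 and 1009.6 FPKM in NCD (-1.20 ± 0.14, adjusted p = 0.0023), and the glutathione transferase Gsta3 had 324 and 297 FPKM in H3D and 1141 and 1069 FPKM in NCD (-1.83 ± 0.23, adjusted p = 0.00269). Targets by which NRF2 activity is often read did not pass the test: Nqo1, a quinone reductase, had 26.3 and 17.7 FPKM in H3D and 15.3 and 13.5 FPKM in NCD (adjusted p = 0.307), and the cystine transporter Slc7a11 had 7.65 and 7.39 FPKM in H3D and 4.95 and 5.37 FPKM in NCD (adjusted p = 0.464; called in a fit of H3D and NCD alone). The rise came from sulfiredoxin (Srxn1, 0.71), a call lost without any 1 of the 4 pools, between 0.60 and 0.83.

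Genes of the pericentral zone, the hepatocytes around the central vein where Wnt signals act, were lower: of 20 tested, 12 fell and 1 rose, with a median of -1.01. Cyp1a2 and Cyp2e1, given above, are on this list too, and Glul and Oat are also on that of the urea cycle and amino acid breakdown. The rise was that of the amino acid transporter Slc1a4 (1.18), a call lost without any 1 of the H3D or NCD pools, between 0.94 and 1.43, and without an H1D pool. Under equal sums 11 fell and 2 rose. Glutamine synthetase (Glul), which is confined to that zone in normal liver, had 97.9 and 93.3 FPKM in H3D and 260.2 and 241 FPKM in NCD (-1.38 ± 0.17, adjusted p = 0.00238). Ornithine aminotransferase (Oat) had 35.6 and 31.2 FPKM in H3D and 185 and 183 FPKM in NCD (-2.45 ± 0.29, adjusted p = 0.00238), and the glutamate transporter Slc1a2 had 8.93 and 7.60 FPKM in H3D and 31.7 and 31.1 FPKM in NCD (-1.87 ± 0.19, adjusted p = 0.00129). The groups did not overlap in any of the 3.

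Fatty acid oxidation was lower at many of its steps. Of 44 tested genes, 26 fell and 3 rose, with a median of -0.591. Acsl1, which joins fatty acids to coenzyme A, had 69.9 and 68.8 FPKM in H3D, against 245 and 307 FPKM in NCD (-1.98 ± 0.14, adjusted p = 0.000237). The fatty acid carrier Fabp1 had 1840.1 and 2734 FPKM in H3D, against 6228 and 6113 FPKM in NCD (-1.46 ± 0.20, adjusted p = 0.00387). The peroxisomal thiolase Acaa1b had 56.4 and 77.4 FPKM in H3D, against 494 and 525 FPKM in NCD (-2.94 ± 0.26, adjusted p = 0.000736), and the isomerase Eci1 of mitochondria fell by 0.93. The 3 that rose were Fgf21, a hormone that liver releases in fasting and stress (23.3 and 29.2 FPKM in H3D and 8.37 and 8.48 FPKM in NCD, 1.57 ± 0.29, adjusted p = 0.0105), the uncoupling protein Ucp2 (0.87) and the omega-hydroxylase Cyp4a31 (1.30). Each of these 3 calls was lost without either NCD pool, where Fgf21 was at 1.57 and 1.58, Ucp2 at 0.91 and 0.83 and Cyp4a31 at 1.24 and 1.37, and also without H3D pool 2 for Fgf21 (1.42) and Cyp4a31 (1.06) and without H3D pool 1 for Ucp2 (0.75). The count of falls in this group was 17 without NCD pool 1, 11 without NCD pool 2 and 14 without H3D pool 1.

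On the deposited scale, genes of the respiratory chain were lower throughout, mostly by small amounts. Of 73 nuclear genes of its complexes, 65 fell and 0 rose (0 at an unadjusted p under 0.05), all 73 differences lay below 0, and they ran from -1.01 to -0.21 with a median of -0.524. By complex, 29 of 34 subunits of complex I fell, 4 of 4 of complex II, 8 of 9 of complex III, 10 of 10 of complex IV and 13 of 15 of ATP synthase, and the 1 cytochrome c gene tested fell. Ndufb9 of complex I had 160.0 and 178 FPKM in H3D and 289 and 279 FPKM in NCD (-0.75 ± 0.10, adjusted p = 0.00308), and Uqcrc1 of complex III had 60.6 and 64.7 FPKM in H3D and 96.4 and 102 FPKM in NCD (-0.66 ± 0.08, adjusted p = 0.00303). Of the 13 subunits encoded in mitochondrial DNA 8 fell, with a median of -0.611. Among them mt-Co1 of complex IV had 6701 and 7316 FPKM in H3D and 12792 and 12743 FPKM in NCD (-0.87 ± 0.12, adjusted p = 0.00429). Its call was lost with quantile scaling, at -0.517, and with no filter on low values, at -0.867 (adjusted p = 0.149 in limma). The 78 cytosolic ribosomal protein genes, another set of abundant genes, had a median of 0.0882 and 0 calls by limma (2 higher and 1 lower at an unadjusted p under 0.05).

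These counts depended on the scale and on single pools. With equal FPKM sums, 38 nuclear respiratory genes fell with a median of -0.309, and 4 mitochondrially encoded ones with a median of -0.395, while 16 ribosomal protein genes rose and the median of all genes was 0.20. With equal sums of nuclear genes 40 nuclear respiratory genes fell, and with quantile scaling 28. Without NCD pool 1, 24 fell, without NCD pool 2, 16 fell, and without H3D pool 1, 34 fell. Without these pools in the same order, 2, 3 and 4 mitochondrially encoded genes fell, and without H3D pool 2, 3.

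**Figure D4:**
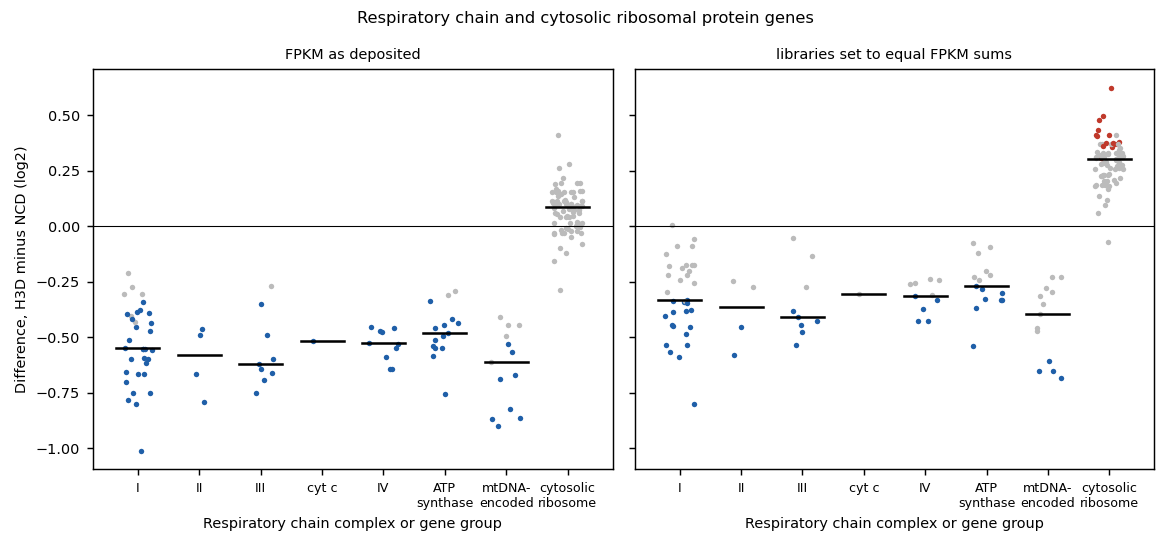
Each point is a gene of a respiratory chain complex, of mitochondrial DNA (mtDNA) or of the cytosolic ribosome, with its log2 difference, H3D minus NCD, upwards; blue, fell; red, rose; grey, not called; line, median. On the deposited scale (left) the median of complex I is -0.549 and that of the ribosome 0.0882, and with equal FPKM sums (right) they are -0.334 and 0.304; this scaling moves all genes up by about the same amount.

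Lipid synthesis was lower in part. Of 30 genes of fatty acid and triglyceride synthesis, 11 fell and 0 rose (0 at an unadjusted p under 0.05), with a median of -0.518. Of all genes at 50 to 500 FPKM, 32.7% fell, and the list was not matched for level. Malic enzyme (Me1), which supplies NADPH, had 14.2 and 20.4 FPKM in H3D, against 104 and 84.9 FPKM in NCD (-2.43 ± 0.23, adjusted p = 0.000981). ATP citrate lyase (Acly), which makes cytosolic acetyl-CoA, had 71.5 and 58.2 FPKM in H3D and 144 and 112 FPKM in NCD (-0.98 ± 0.15, adjusted p = 0.00563). The desaturase Scd1 had 904 and 1689 FPKM in H3D and 3696 and 2706 FPKM in NCD (adjusted p = 0.0509), and fatty acid synthase (Fasn) had 74.0 and 62.5 FPKM in H3D and 185 and 94.6 FPKM in NCD (adjusted p = 0.0996). Neither passed the test. For each gene both H3D pools lay below both NCD pools, but the pools did not overlap for 63.5% of all genes. Scd1 was called without H3D pool 2, at -1.81, and without a Nor pool, at -1.36. The count of synthesis genes that fell was 5 without NCD pool 1, 6 without NCD pool 2 and 6 without H3D pool 1, and 5 with quantile scaling.

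Genes of the lipid droplet did not move as a group, with 3 rises and 4 falls among 24. The droplet coat protein perilipin-2 (Plin2), which rises with stored fat, had 230.1 and 255 FPKM in H3D and 228 and 279 FPKM in NCD (adjusted p = 0.882), so that the pools overlapped. Fitm1, which helps droplets bud from the endoplasmic reticulum, had 2.62 and 2.09 FPKM in H3D and 27.1 and 30.4 FPKM in NCD (-3.36 ± 0.36, adjusted p = 0.00143), while lipoprotein lipase (Lpl), which healthy adult hepatocytes hardly make, had 73.0 and 97.3 FPKM in H3D, 42.7 and 30.7 FPKM in NCD and 2.85 and 4.99 FPKM in Nor (1.21 ± 0.26 for H3D minus NCD, adjusted p = 0.0189). The Lpl call was lost without NCD pool 2 and without H3D pool 2, at 0.97 and 1.00, and the number of droplet genes that rose was 1 without NCD pool 1, 0 without NCD pool 2 or H3D pool 2 and 6 with equal FPKM sums. Cidec, a protein that fuses droplets, had 7.44 and 12.7 FPKM in H3D and 14.5 and 16.3 FPKM in NCD (adjusted p = 0.596). The fatty acid transporter Cd36 had 52.9 and 72.8 FPKM in H3D and 52.7 and 52.4 FPKM in NCD and did not pass the test (adjusted p = 0.728).

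Of 33 cholesterol genes 5 fell and 1 rose (18.2% called, against 14.9% of all genes), with a median of -0.47. Sc5d, a sterol desaturase of cholesterol synthesis, had 243 and 199.6 FPKM in H3D, against 372 and 324 FPKM in NCD (-0.66 ± 0.12, adjusted p = 0.00986), a call lost without NCD pool 1, at -0.56, and under quantile scaling, at -0.415. The count of cholesterol genes that fell was 16 without H3D pool 1, 9 without a Nor pool, 2 without an NCD pool, 3 without H3D pool 2 and 2 with equal FPKM sums, where 3 rose. Bile acid genes moved together: of 25, 14 fell and 0 rose (0 at an unadjusted p under 0.05), with a median of -0.898. Slco1a1, given above with the male-biased genes, is on this list too. Cyp8b1, which makes cholic acid, had 9.22 and 15.7 FPKM in H3D, against 88.3 and 108 FPKM in NCD (-2.97 ± 0.42, adjusted p = 0.0044). Cyp7a1, the rate-limiting enzyme of the pathway, had 8.19 and 12.3 FPKM in H3D, against 45.2 and 29.7 FPKM in NCD (-1.82 ± 0.32, adjusted p = 0.00887), and its call was lost without NCD pool 1 and without H3D pool 1, at -1.52 and -1.53. The bile salt export pump Abcb11 fell by 0.90. The count of bile acid genes that fell was 9 without NCD pool 1, 8 without NCD pool 2 and 9 without H3D pool 1.

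Of 38 genes of the urea cycle and amino acid breakdown, 23 fell and 0 rose (2 at an unadjusted p under 0.05), with a median of -0.591. Ornithine transcarbamylase (Otc), of the urea cycle, had 74.5 and 87.6 FPKM in H3D, against 158 and 177 FPKM in NCD (-1.05 ± 0.14, adjusted p = 0.00328), and the amino acid transporter Slc38a4 had 146 and 144 FPKM in H3D, against 258 and 285 FPKM in NCD (-0.90 ± 0.12, adjusted p = 0.00308). With equal FPKM sums 14 fell and 2 rose; without NCD pool 1, 8 fell, without NCD pool 2, 6, without H3D pool 1, 15, and without H3D pool 2, 12. Of 34 genes of glucose metabolism 8 fell and 1 rose (26.5% called, against 14.9% of all genes). Of all genes at 50 to 500 FPKM, 32.7% fell, and the list was not matched for level. The rise was that of the hexokinase Hk3 (0.71). Its call was lost without NCD pool 1, NCD pool 2, H3D pool 2 or an H1D or H2D pool, at 0.49 to 0.74. It was also lost with 0.1 FPKM added in place of 0.5 (0.84), no filter on low values or a fit of H3D and NCD alone (both 0.71). Glucose-6-phosphatase (G6pc), which releases glucose, had 36.6 and 41.6 FPKM in H3D, against 168 and 98.2 FPKM in NCD (-1.71 ± 0.30, adjusted p = 0.00887), a call lost without NCD pool 1 and without H3D pool 1, at -1.32 and -1.62. Under equal sums 5 glucose genes rose and 4 fell, and with quantile scaling 5 rose and 5 fell. The number that fell was 1 without NCD pool 1, 2 without NCD pool 2 and 1 without H3D pool 1.

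Plasma proteins that hepatocytes secrete went different ways. Transthyretin, apolipoprotein A2 and apolipoprotein A5 were lower. Apoa2 had 6791 and 7362 FPKM in H3D, against 14566 and 14565 FPKM in NCD (-1.04 ± 0.16, adjusted p = 0.00487). The Apoa2 call was lost under quantile scaling, at -0.626, and with no filter on low values, at -1.04 (adjusted p = 0.122 in limma). Apoa5, which speeds the clearance of triglyceride, had 150.5 and 141 FPKM in H3D, against 329 and 342 FPKM in NCD (-1.20 ± 0.13, adjusted p = 0.00145). Transthyretin (Ttr), a carrier of thyroid hormone, had 1841 and 1938 FPKM in H3D, against 4589.7 and 4452 FPKM in NCD (-1.26 ± 0.11, adjusted p = 0.000691). Apolipoprotein A4 (Apoa4), which liver makes on a fatty diet, was higher, at 1558 and 2314 FPKM in H3D and 1027 and 813 FPKM in NCD (1.05 ± 0.20, adjusted p = 0.0116; lost without NCD pool 2, at 0.89). Of 41 complement and coagulation genes, 6 rose and 7 fell (31.7% called, against 14.9% of all genes). Complement C3 had 3098 and 3205 FPKM in H3D and 1755 and 1717 FPKM in NCD (0.86 ± 0.14, adjusted p = 0.00606; lost without NCD pool 2, at 0.84). Complement factor D (Cfd, or adipsin), best known from fat tissue, had 0 and 0.263 FPKM in H3D, against 17.0 and 22.2 FPKM in NCD (-5.01 ± 1.03, adjusted p = 0.0159), a call lost without any 1 of the 4 pools, between -5.31 and -4.71. With equal FPKM sums 15 complement and coagulation genes rose and 5 fell; without NCD pool 2, 0 rose and 1 fell, without NCD pool 1, 4 and 1, and without H3D pool 1 or H3D pool 2, 6 rose and 1 or 4 fell. Of 30 hepatocyte transcription factors 8 fell and 0 rose (0 at an unadjusted p under 0.05). That was 26.7% called, against 14.9% of all genes. The count of falls was 2 with equal FPKM sums and 1 to 4 without single H3D or NCD pools.

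Of 21 oncofetal and tumour marker genes, 3 of which reached 1 FPKM in neither NCD pool, 3 rose and 1 fell. That was 19% called, against 14.9% of all genes. Igdcc4, an immunoglobulin-like surface protein of fetal liver, had 8.83 and 7.34 FPKM in H3D and 1.71 and 2.70 FPKM in NCD (1.69 ± 0.25, adjusted p = 0.00467). Tff3 rose as well (1.30 ± 0.22, adjusted p = 0.00714), with the call lost without NCD pool 1, at 1.11. Alpha-fetoprotein (Afp), the serum marker of liver cancer, had 16.9 and 7.39 FPKM in H3D and 25.6 and 38.7 FPKM in NCD (-1.45 ± 0.38, adjusted p = 0.0407). Its call was lost without NCD pool 1, NCD pool 2 or H3D pool 2, at -1.74, -1.16 and -0.88, and without an H1D pool, at -1.45. It was also lost with equal FPKM sums, at -1.24, equal sums of nuclear genes, at -1.29, and quantile scaling, at -1.38. The same held with 0.1 FPKM added in place of 0.5 (-1.48), with no filter on low values and in a fit of H3D and NCD alone (both -1.45). Gpc3 did not pass the test (adjusted p = 0.657); H3D pool 1 lay above both NCD pools and H3D pool 2 below them. The fetal growth factor Igf2 had 2.15 and 0.948 FPKM in H3D and 0.638 and 0.476 FPKM in NCD (adjusted p = 0.472). With equal FPKM sums 7 of the 21 rose and 0 fell, without NCD pool 1, 1, and without H1D pool 1 or H1D pool 2, 6.

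Mitotic genes were higher. Of 29 cell cycle genes 10 rose and 0 fell (0 at an unadjusted p under 0.05), with a median of 0.712; 4 of the 29 reached 1 FPKM in neither NCD pool and passed the filter through other groups. Cyclin B2 (Ccnb2), which drives entry into mitosis, had 4.35 and 5.67 FPKM in H3D, against 1.00 and 1.32 FPKM in NCD (1.73 ± 0.26, adjusted p = 0.00507). Ki-67 (Mki67), the usual marker of cycling cells, had 6.33 and 7.87 FPKM in H3D, against 2.24 and 2.78 FPKM in NCD (1.33 ± 0.28, adjusted p = 0.0183). The pools did not overlap, but the levels were low, and the Mki67 call was lost without any 1 of the 4 pools, between 1.19 and 1.48. The number of cell cycle genes that rose was 1 without NCD pool 1, 2 without NCD pool 2, 6 without H3D pool 1 and 1 without H3D pool 2, against 16 with equal FPKM sums, and 0 of those with a mean of at least 5 FPKM rose. The cyclin-dependent kinase inhibitor Cdkn1a had 32.2 and 41.5 FPKM in H3D and 18.5 and 21.8 FPKM in NCD; it did not pass in the fit of all groups (adjusted p = 0.655), where the Nor pools were at 0.714 and 22.8 FPKM, and it passed without either 1 of the Nor pools, at 0.85. The immediate early gene Fos, a component of the AP-1 factor, had 9.06 and 7.72 FPKM in H3D and 2.36 and 2.90 FPKM in NCD (1.51 ± 0.21, adjusted p = 0.0039).

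Few markers of the other cells of liver passed the test. Called in either direction were 6.67% of the collagen and stellate cell genes, 15% of the endothelial and 18.2% of the cholangiocyte and progenitor genes. The share of all genes was 14.9%. Of 30 genes of collagen and stellate cells, 2 rose, with a median of 0.2 and a summed level of 915 and 882 FPKM in H3D, against 575 and 570.4 FPKM in NCD. Fibronectin (Fn1), which hepatocytes also secrete, made up most of that, with 697 and 579.8 FPKM in H3D and 350.4 and 343 FPKM in NCD (0.87 ± 0.13, adjusted p = 0.00519). With equal FPKM sums 7 of the 30 rose, without an H2D pool 6, and without NCD pool 1 or H3D pool 2, 1. The collagen gene Col1a1 had 3.93 and 3.82 FPKM in H3D and 2.47 and 3.43 FPKM in NCD (adjusted p = 0.471). Of 20 endothelial genes 2 rose and 1 fell, with sums of 258 and 283 FPKM in H3D and 294 and 277 FPKM in NCD. Von Willebrand factor (Vwf), the clotting protein of large-vessel endothelium, had 4.14 and 8.91 FPKM in H3D and 0.813 and 0.873 FPKM in NCD (2.30 ± 0.44, adjusted p = 0.0124), a call lost without NCD pool 1, NCD pool 2 or H3D pool 2, at 2.27, 2.33 and 1.79. Of the 20 endothelial genes 1 was called without H3D pool 1 and 0 without NCD pool 1, NCD pool 2 or H3D pool 2 (3 higher and 3 lower at an unadjusted p under 0.05 in the full fit), and with equal FPKM sums 3 rose and 0 fell. Of 11 tested cholangiocyte and progenitor genes, the adhesion protein Cd24a rose (10.6 and 13.3 FPKM in H3D and 2.81 and 4.30 FPKM in NCD, 1.63 ± 0.24, adjusted p = 0.00488) and the keratin Krt23 fell (0.687 and 0.378 FPKM in H3D and 2.68 and 5.58 FPKM in NCD, -2.11 ± 0.34, adjusted p = 0.00671); with equal FPKM sums 2 rose and 1 fell. Of 23 general hepatocyte genes 9 fell and 3 rose, and their sum was 138600 and 122400 FPKM in H3D, against 128300 and 121800 FPKM in NCD. Without NCD pool 1, 5 fell and 2 rose, and without NCD pool 2, 5 fell and 1 rose.

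**Figure D5:**
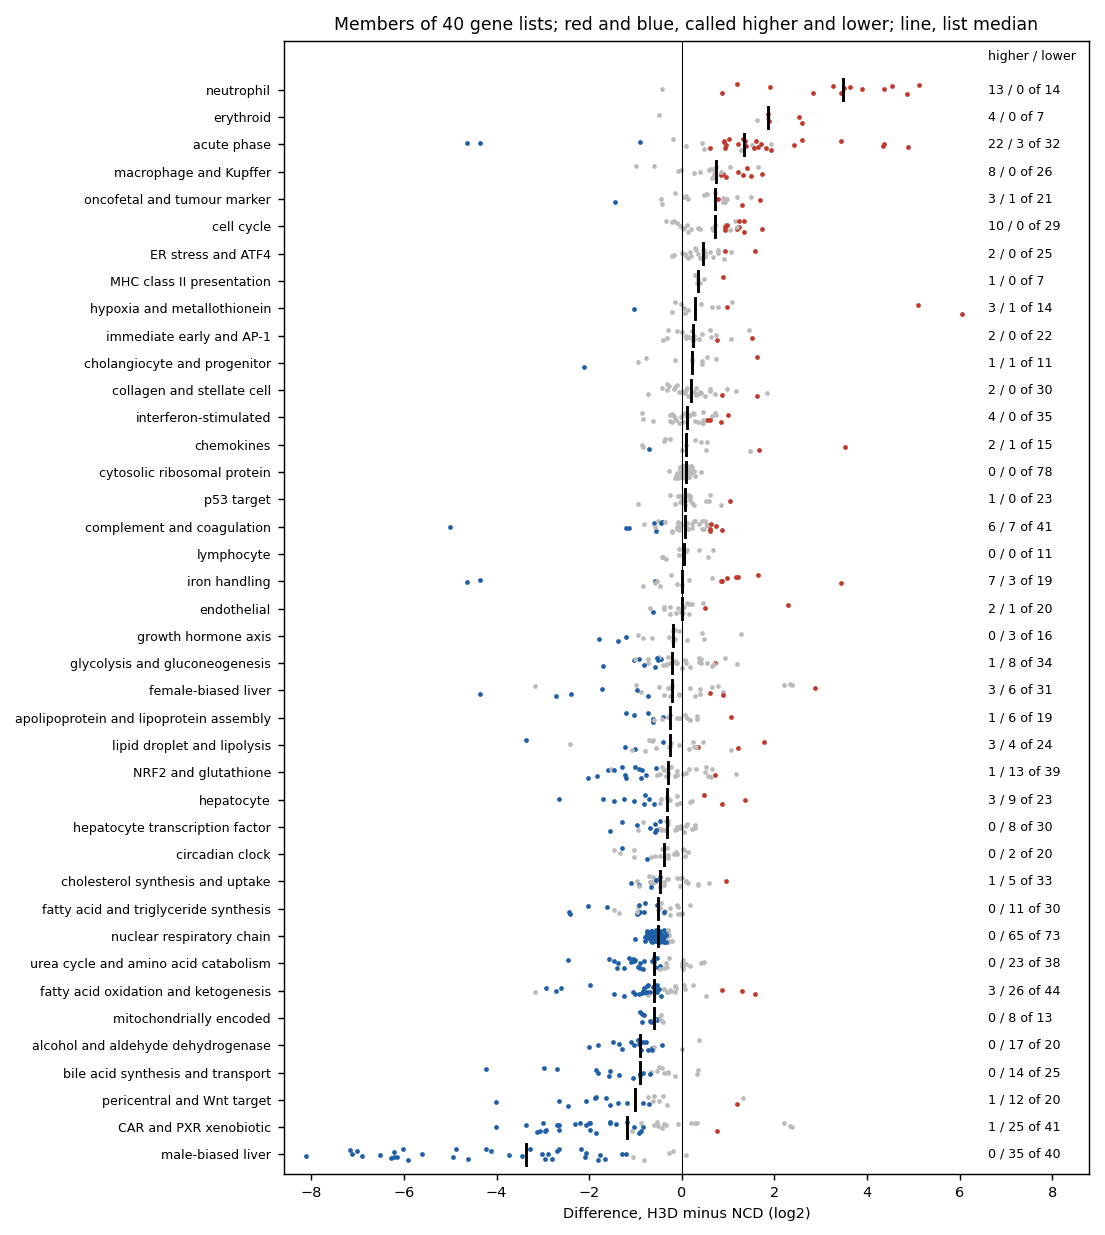
Each point is a tested member of 1 of 40 gene lists, placed by its log2 difference, H3D minus NCD; red, rose; blue, fell; grey, not called; black line, list median. The neutrophil list has a median of 3.47, with 9 of its 14 tested members under 1 FPKM in both NCD pools, and the male-biased list one of -3.36; the counts at the right give members that rose and fell of those tested.

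H3D was then set against the other 2 high-fat groups, which share its diet and DEN. They differ from H3D in the generation they were born to and so in when they were bred, and these cannot be told apart. Against H2D, 59 genes were called (6 higher and 53 lower, 0.511% of those tested, with 0.0519% higher and 0.459% lower). Against H1D, 70 were called (16 higher and 54 lower, 0.606%, with 0.138% higher and 0.467% lower). Unadjusted p-values under 0.05 numbered 1478 and 1332. The male-biased genes took a large share of these calls: of the 40 tested, 21 were lower in H3D than in H2D and 18 were lower in H3D than in H1D. For Mup genes these were 14 and 12 of 17, with median differences of -4.37 against H2D and -2.78 against H1D. The Mup sum, the firmer value, had a mean of 4830 FPKM in H3D, 19880 FPKM in H2D and 10150 FPKM in H1D. The gap in the sum is smaller than these medians give. Leaving out 1 library gave 17 calls (without H2D pool 1 or H3D pool 1) to 120 calls (without an H1D pool) against H2D, and 12 (without H3D pool 2) to 113 (without Nor pool 2) against H1D. Every single library left out moved the count against H2D by over 1.5 times, as did each of those of Nor, NCD, H1D and H3D against H1D.

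Mup12 had 0.372 and 0.610 FPKM in H3D, against 65.0 and 37.4 FPKM in H2D and 24.0 and 38.6 FPKM in H1D (log2 differences -5.66 ± 0.52 and -4.97 ± 0.52, adjusted p = 0.0041 and 0.0112). Hsd3b5 had 0.0720 and 0.113 FPKM in H3D, against 20.0 and 10.1 FPKM in H2D and 6.26 and 5.72 FPKM in H1D (-4.64 ± 0.34 and -3.45 ± 0.34, adjusted p = 0.00288 and 0.0112). Hamp had 142 and 42.0 FPKM in H3D, against 1093 and 758 FPKM in H2D and 1287 and 1427 FPKM in H1D (-3.55 ± 0.49 and -4.12 ± 0.49, adjusted p = 0.0286 and 0.0175). For these 3 genes H3D stood below both other groups with no overlap. The same held for Cyp2e1, with 319 and 357 FPKM in H3D, 1465 and 1155 FPKM in H2D and 1088 and 1752 FPKM in H1D (-1.94 ± 0.22 and -2.03 ± 0.22, adjusted p = 0.0118 and 0.0112). Ghr was lower in H3D than in H2D (156 and 145 FPKM in H2D, -1.27 ± 0.19, adjusted p = 0.0394) and did not pass against H1D (98.4 and 137 FPKM in H1D, -0.89 ± 0.19, adjusted p = 0.0979).

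Few inflammatory genes passed the test against H2D. Of the 32 acute phase genes, 0 were higher and 1 was lower in H3D than in H2D (3 and 9 at an unadjusted p under 0.05), while 4 were higher and 1 was lower than in H1D (20 and 2 at an unadjusted p under 0.05). Saa2 had 696 and 2538 FPKM in H3D, 3639 and 9429 FPKM in H2D and 55.7 and 152 FPKM in H1D, with an adjusted p of 0.252 against H2D and 0.0758 against H1D. Of the 14 neutrophil genes, 0 were called against H2D (1 higher at an unadjusted p under 0.05) and 2 were higher than in H1D (13 at an unadjusted p under 0.05). As 9 of the 14 reached 1 FPKM in neither NCD pool and passed the filter through other groups, these counts are no measure of the list. Lcn2 was higher in H3D than in H1D, with 709 and 745 FPKM in H1D (1.82 ± 0.21, adjusted p = 0.0139), and Mpo likewise, with 0.0148 and 0.607 FPKM in H1D (3.18 ± 0.49, adjusted p = 0.0401). A p that misses the threshold here does not show that H3D and H2D are alike. Among metabolic genes, Apoa5 and transthyretin were lower in H3D than in H1D (Apoa5 -0.98 ± 0.13, adjusted p = 0.0188; Ttr -0.74 ± 0.11, adjusted p = 0.0319), and Srxn1 was higher in H3D than in H2D, at 67.5 and 57.6 FPKM in H3D and 26.2 and 18.2 FPKM in H2D (1.49 ± 0.17, adjusted p = 0.0129).

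The differences of each high-fat group from NCD share the NCD pools and are given side by side without a test of their likeness. The Mup genes had a median log2 difference from NCD of -5.91 in H3D, -1.38 in H2D and -2.69 in H1D, with 17, 7 and 12 of 17 called, all of them lower, where 9.87%, 1.93% and 0.493% of all genes were lower (14.9%, 4.08% and 0.701% called in either direction). The Mup sum had a mean of 41640 FPKM in NCD, 4830 FPKM in H3D, 19880 FPKM in H2D and 10150 FPKM in H1D. The nuclear respiratory genes had a median of -0.524 in H3D, -0.291 in H2D and -0.387 in H1D, with 65, 5 and 0 of 73 called. The acute phase genes had a median of 1.34 in H3D, 1.44 in H2D and 0.599 in H1D, with 22, 21 and 5 of 32 higher, where 5.04%, 2.15% and 0.208% of all genes were. In NCD against Nor, where DEN was given on chow, 916 genes rose and 693 fell (13.9% called), and there 33 of the 73 nuclear respiratory genes fell, with a median of -0.337, and 1 of the 17 Mup genes fell, with a median of -0.764. The Mup sum was 87595 and 43735 FPKM in the Nor pools, against 39950 and 43327 FPKM in NCD, so Nor pool 2 lay near the NCD pools. Oncofetal markers rose in NCD against Nor in 16 of 21 cases, where 7.93% of all genes rose and 6% fell.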

How the data were processed

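Long RNA was sequenced from liver RNA pools, 2 per group. Ribosomal RNA was removed and paired reads of 125 nt were made on an Illumina HiSeq instrument, per the labels' protocols. The submitters' processing notes name the build GRCm38 and, with no order or role, Cuffdiff 2.1.1, Cufflinks 2.1.1, SAMtools 0.1.18, Picard 1.96, GATK, TopHat2 2.0.9 and Bowtie2 2.0.6. The authors deposited FPKM per transcript, so that read depth is unknown and no counting interval can be given.

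FPKM of the 50660 transcripts was summed by gene identifier. Kept genes reached 1 FPKM in 2 or more of 10 libraries. limma 3.58.1 (R 4.3.3) was fitted to log2(FPKM + 0.5) over all 5 groups with a variance trend and 5 residual degrees of freedom, and p-values were adjusted by Benjamini-Hochberg over 11557 genes. The added 0.5 understates the change of low genes. On simulated data with 200 changed genes, the fit was tested before use. Groups came from the labels.

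The comparison, its genes and the gene lists were chosen with earlier results of these data known, so a list is described by its count and median beside those of all genes. Named genes are the 12 largest rises and falls among called genes with at least 2 FPKM in a group and pools that do not overlap, up to 4 called members with the smallest p from each list, and a fixed list of liver markers; not every such gene is described. Genes described outside this rule were chosen after their values were seen. Alternatives changed the pseudocount, the filter, the scaling, the groups fitted, the variance trend, the unit (transcripts), a block for the pool number and the libraries used. Small RNA and other long RNA tables are not used here. Results for some items are not reported here.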

Additional observations from a re-analysis of the deposited data

Results flagged for a closer look

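Each gene below was picked out because H3D differed from another high-fat group, H2D or H1D, by limma's test of that difference (Benjamini-Hochberg adjusted p under 0.05 over 11557 genes). The log2 differences share the H3D pools and are values, with no explanation weighed. Where a gene passed against both groups, the one with the smaller p is given.

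Lower in H3D than in H2D were Mup11 (-6.17), Mup12 (-5.66), Mup14 (-5.03), Hsd3b5 (-4.64), Cyp4a12a (-3.77), Slco1a1 (-2.50), Cml5 (-2.39), Nat8 (-2.38), Slc1a2 (-1.43), Ghr (-1.27) and Slc38a4 (-0.85), and Srxn1 was higher (1.49). Of these, Ghr, Slc38a4 and Srxn1 passed against H2D and not against H1D. Lower in H3D than in H1D were Hamp (-4.12), Car3 (-3.58), Krt23 (-2.27), Cyp2e1 (-2.03), Cyp1a2 (-1.86), Acaa1b (-1.65), Glul (-1.21), Acsl1 (-1.05), Apoa5 (-0.98) and Ttr (-0.74). Higher in H3D than in H1D were Mpo (3.18), Cxcl14 (3.03), Cyp17a1 (2.27), Lcn2 (1.82), Lrg1 (0.90) and Itih3 (0.71). Of the genes given against H1D, Hamp, Car3, Cyp2e1 and Cyp1a2 also passed against H2D. Their directions against NCD were the same in each case.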

How the results depend on the processing

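The number of genes called between H3D and NCD was 2638 with equal FPKM sums, against 1724 as reported, and 508 to 2177 when 1 library was left out. With a block for the pool number it was 1774; deviations of same-numbered pools correlated at -0.0533 to 0.225 between groups, over 0.1 in 4 of 10 pairs of groups and at -0.0522 between H3D and NCD, so the numbers were not taken as pairs. With the block Scd1 and Fasn were called (adjusted p = 0.0342 and 0.0399 in limma), Afp was not (0.0559), and 15 fatty acid synthesis genes fell, 4 glucose genes rose and 2 p53 targets rose. For H3D against H2D the count was 36 with no filter, 39 with equal sums of nuclear genes, 39 without a variance trend, 52 with the block and 17 to 120 without 1 library. For H3D against H1D it was 75 with the block and 12 to 113 without 1 library. For NCD against Nor it was 652 with quantile scaling, 914 for single transcripts and 258 to 2373 without 1 library. The cause was not tested. Of 103 named genes called, 69 kept direction and call in all 10 fits without 1 library and 92 in the other settings. With no filter on low values 9 of the 103 lost their call: Afp, Apoa2, Hk3, Igfals, mt-Co1, Serpina3k, Slc1a4, Srxn1 and Trf. Plin2, which did not pass the test, changed sign to 0.159, 0.109 and 0.228 under equal sums, equal nuclear sums and quantile scaling, and ran from -0.204 to 0.0912 without single pools (0.0912 without NCD pool 2 and 0.0184 without H3D pool 1). Gpc3, which did not pass either, ran from -1.25 to 0.387, with 0.387 without H3D pool 2. With 2 pools a group, read depth unknown and RNA of several animals in each pool, spread between animals is not measured, and changes of genes near 1 FPKM are the least certain.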

Other observations

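In H3D against NCD, 5.04% of all genes tested rose and 9.87% fell (14.9% called). The shares called were 10% of clock genes, 9.09% of immediate early and AP-1 genes and 4.35% of p53 targets, all below 14.9%. Of 20 clock genes, 2 fell and 0 rose in H3D against NCD (0 at an unadjusted p under 0.05), with a median of -0.382. The count was 8 without a Nor pool, 0 without an NCD pool or H3D pool 1, 1 without H3D pool 2, without an H1D pool or with equal FPKM sums, and 7 in a fit of H3D and NCD alone. Of 22 immediate early and AP-1 genes 2 rose and 0 fell (0 at an unadjusted p under 0.05), Fos and Junb, with a median of 0.25; without a Nor pool 4 rose, and with equal FPKM sums 7. Of 23 target genes of p53, 1 rose and 0 fell by limma (5 higher and 1 lower at an unadjusted p under 0.05), with a median of 0.079; the count was 0 without an NCD pool or H3D pool 1, 3 without a Nor pool and 4 with equal FPKM sums.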
